A study of Mus musculus with 6 samples.

Results

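The 2 uninduced progenitor clones of the series were compared, each sampled at 0 h before either treatment had begun. Members were the cell barcodes of the Hoxa9 Off 0hr and Caf-1 Off 0hr libraries that held 200 to 6000 genes and at most 10% of their unique molecular identifiers (UMIs, tags that count each captured transcript once) in mitochondrial genes. This gave 473 and 647 cells, or 1120 of the 5872 cells kept over the 6 libraries of the series. Both clones were iGMPs, granulocyte-macrophage progenitors from the bone marrow of Lys-GFP mice on a C57BL/6 background, immortalized with HOXA9 fused to the ligand-binding domain of a G400V mutant estrogen receptor. Both were grown with estradiol and stem cell factor and without IPTG, so HOXA9 was active and neither hairpin vector was induced. The Hoxa9 Off 0hr cells carried a control vector (shCTRL) and the Caf-1 Off 0hr cells carried an IPTG-inducible hairpin against Chaf1b (shChaf1b). The names HOXA9 OFF and CAF-1 OFF therefore state what was done to each clone later, and not the state at 0 h. Each line was 1 clone and each clone was represented by 1 library, so the clone, its vector and the library preparation cannot be told apart, and no difference below was tested between groups.

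Granulocyte-macrophage progenitors are committed blood progenitors that give rise to neutrophils, monocytes and the rarer granulocytes, namely eosinophils, basophils and mast cells. They express the stem cell factor receptor Kit, the surface sialomucin Cd34 and the transcription factors PU.1 (Spi1) and C/EBPα (Cebpa), and they begin to make primary granule proteins such as myeloperoxidase (Mpo) and cathepsin G (Ctsg). HOXA9 is a homeobox transcription factor of stem and progenitor cells that is switched off as they mature. While it stays active the cells divide without maturing, and removal of estradiol lets them become neutrophils.

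The kept cells held 4190199 UMIs in HOXA9 OFF 0 h and 4214525 in CAF-1 OFF 0 h, with medians of 8660 and 6571 UMIs a cell. Barcodes over the mitochondrial limit numbered 927 of 1400 in HOXA9 OFF 0 h and 463 of 1110 in CAF-1 OFF 0 h, with median mitochondrial shares of 89.2% and 55.8%. Kept cells had close median mitochondrial shares of 5.07% and 5.06%. No kept barcode sequence was shared by these libraries. Levels are counts-per-million (CPM) of the UMIs of a library, and ratios are log2 of HOXA9 OFF over CAF-1 OFF after adding 10 CPM to both. Folds given beside CPM values are of CPM without that addition, while the limits of 1.25-fold, 1.5-fold and 2-fold were applied to the ratios with it. Intervals are exact 95% Poisson, conditional binomial or Clopper-Pearson intervals and cover counting error only.

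Of the genes that the later treatments address, Chaf1b differed before treatment, while Hoxa9 was at close levels. Chaf1b, the p60 subunit of the histone chaperone CAF-1, stood at 35.6 CPM (30.1 to 41.8) in CAF-1 OFF 0 h and at 51.5 CPM (44.9 to 58.9) in HOXA9 OFF 0 h. That is 1.45-fold (1.17 to 1.80) more in the clone with the control vector, and its log2 ratio of 0.43 lies outside the central span of all genes given in the next paragraph. Chaf1a, the large CAF-1 subunit, stood at 32.7 and 32.2 CPM. Hoxa9 reads stood at 24.7 CPM in CAF-1 OFF 0 h and 23.1 CPM in HOXA9 OFF 0 h, and whether they come from the endogenous gene or the fusion transgene cannot be told apart in these counts. Xist, the RNA of the inactive X chromosome, was at 1605 and 1688 CPM, and 0 UMIs of Ddx3y, Eif2s3y, Kdm5d and Uty, genes of the Y chromosome, were found in either clone.

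Most genes lay at close levels in both clones. Of 4580 genes whose mean level reached 20 CPM, 4026 (87.9%) differed by at most 1.25-fold and 4459 (97.4%) by at most 1.5-fold. Both counts use levels with 10 CPM added, which narrows the ratios of genes near 20 CPM. The median log2 ratio was -0.04, and the central span from the 5th to the 95th percentile ran from -0.35 to 0.34. The 15 most abundant genes other than mitochondrial and ribosomal protein genes were Ptma, Ppia, Eef1a1, H2afz, Fau, Fth1, Plac8, Ctsg, Npm1, Ran, Hspa8, Malat1, Hsp90ab1, Ftl1 and Ndufa4. Their log2 ratios lay between -0.23 for Fth1, a ferritin subunit, and 0.30 for Ftl1, its partner. Ctsg, the granule protease cathepsin G, was at 3472 CPM in CAF-1 OFF 0 h and 3309 CPM in HOXA9 OFF 0 h.

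Genes of the GMP state were present in both libraries. The GMP list summed to 7854 CPM in CAF-1 OFF 0 h and 6988 CPM in HOXA9 OFF 0 h, and none of its 12 members at or above 20 CPM reached 2-fold, with a median log2 ratio of -0.08 beside -0.04 for all genes. Cd34 was at 756 and 660 CPM, Kit at 82.8 and 80.9 CPM, and Myb, a transcription factor of immature blood cells, at 271 and 261 CPM in CAF-1 OFF 0 h and HOXA9 OFF 0 h. Spi1 was at 166 and 154 CPM and Cebpa at 51.7 and 58.0 CPM in the same order. These core factors lay close together in both clones. The stem cell list was present as well, at 147 CPM in CAF-1 OFF 0 h and 155 CPM in HOXA9 OFF 0 h. Hlf held 483 of its 621 UMIs in the former and 479 of 649 in the latter.

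Some members of the GMP list were less even. Mpo, the peroxidase of primary granules, was at 1451 CPM in CAF-1 OFF 0 h and 978 CPM in HOXA9 OFF 0 h, 1.48-fold (1.43 to 1.54) more in CAF-1 OFF. Irf8, a factor that favours monocytes and dendritic cells, was at 23.3 and 10.7 CPM, 2.17-fold (1.51 to 3.15) more in CAF-1 OFF. Gfi1, a repressor that favours granulocytes, was the other way round, with 27.8 CPM in CAF-1 OFF 0 h and 59.7 CPM in HOXA9 OFF 0 h, a 2.15-fold (1.72 to 2.70) difference. With 10 CPM added, the log2 ratios of Irf8 and Gfi1 were -0.68 and 0.88, short of the 2-fold limit.

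HOXA9 partners and targets had a median log2 ratio of 0.11 over 7 members, and none reached 2-fold. Meis1, the DNA-binding partner of HOXA9, had levels of 45.6 and 50.1 CPM (CAF-1 OFF 0 h, then HOXA9 OFF 0 h). Sox4, a factor of leukaemic self-renewal, was at 90.6 and 138 CPM. Bcl2, which keeps cells from apoptosis, was at 56.0 and 98.1 CPM and lies in the chromosome 1 segment described further on. Mycn was at 8.07 and 0.955 CPM, with 34 UMIs in CAF-1 OFF 0 h and 4 in HOXA9 OFF 0 h.

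Proliferation genes lay close together in both clones. The 24 S phase genes counted had a median log2 ratio of -0.13 and ranged from -0.37 to 0.42, and the 24 G2/M genes had a median of -0.02 and ranged from -0.38 to 0.19. None of either list reached 2-fold. Mki67, the marker of dividing cells, was at 59.3 CPM in CAF-1 OFF 0 h and 58.9 CPM in HOXA9 OFF 0 h. Ribosome biogenesis genes with Myc (median -0.13, 12 genes), glycolysis genes (median -0.09, 11 genes), heat shock genes (median -0.03, 6 genes), p53 targets (median -0.02, 4 genes) and class I MHC genes (median -0.08, 8 genes) also had no member at 2-fold.

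Markers of mature cells were low, apart from some monocyte genes. The monocyte list summed to 687 CPM in CAF-1 OFF 0 h and 485 CPM in HOXA9 OFF 0 h, most of it Ccr2, a chemokine receptor, at 501 and 348 CPM, and F13a1, a coagulation factor subunit, at 129 and 113 CPM. Ccr2 was found in 73.8% and 59.4% of cells thinned to 3600 UMIs. The erythroid list summed to 112 and 102 CPM, most of it Car2, a carbonic anhydrase, at 96.8 and 83.1 CPM. The late granulocyte list summed to 36.5 CPM in CAF-1 OFF 0 h and 31.0 CPM in HOXA9 OFF 0 h, with 0 UMIs of Ltf, Ngp, S100a9 and Ly6g in both. Its largest single difference was Mmp8, neutrophil collagenase, at 24.2 and 4.53 CPM, while Lcn2, lipocalin 2, went the other way with 8.78 and 23.1 CPM. The dendritic cell list summed to 19.5 and 18.4 CPM, the megakaryocyte list to 51.0 and 39.6 CPM, and the list of genes not expressed in blood to 0 and 0.239 CPM. Among lymphoid genes, Ebf1 (211 and 272 CPM) and Igll1 (315 and 350 CPM), which belong to early B-lineage cells, were present in both clones, while Pax5, Cd3e and Ms4a1 had 0 UMIs in both.

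Against this common background, 35 of the 4580 genes reached 2-fold on the HOXA9 OFF side (0.764%) and 5 on the CAF-1 OFF side (0.109%). The 15 with the largest ratios on the HOXA9 OFF side were Prg3, Cma1, Crip1, Prg2, Mtch1, Mcpt8, Ube2s, Taf10, Hras, Nt5dc2, Abhd17a, Nucks1, Thy1, H1fx and Tmem165. The 5 on the CAF-1 OFF side were Tfpi, Elane, Nrp1, Ly6c2 and Dlg2. Just inside the limit on the HOXA9 OFF side lay Alyref, Cmas, Grb2, Ddit3 and Zmynd19 (log2 ratios of 1.00 to 1.06), and just outside it lay Dnajc21, Hdgf, Chic2, Cdc34 and Rnf126 (0.99 to 0.90). Just outside the limit on the CAF-1 OFF side lay Gas6, Clec11a, Akr1c13, Fdx1 and Mkrn1 (-0.97 to -0.77).

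**Figure D1:**
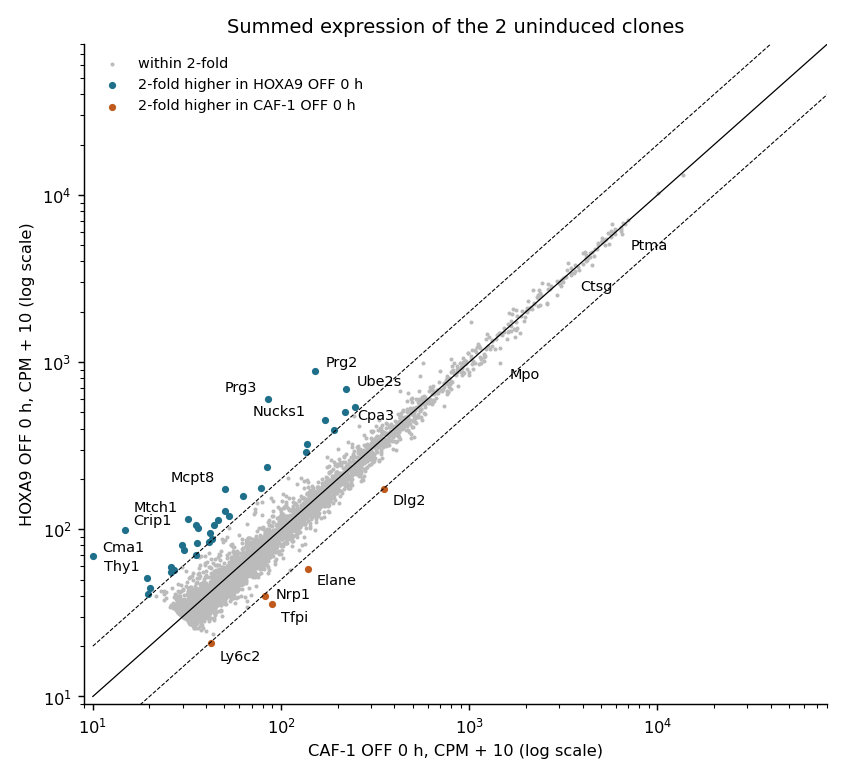
Summed level of each of the 4580 counted genes in CAF-1 OFF 0 h (horizontal) and HOXA9 OFF 0 h (vertical), both as CPM + 10 on log axes, with 1 library an axis; the solid line is equality and the dashed lines are 2-fold. The 35 coloured points above the upper dashed line include the granule genes Prg2, Prg3, Mcpt8, Cma1 and Cpa3, and the 5 below the lower dashed line include Elane and Tfpi.

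Genes of eosinophil, mast cell and basophil granules led the HOXA9 OFF side. Prg2, major basic protein of the eosinophil granule, was at 141 CPM in CAF-1 OFF 0 h and 876 CPM in HOXA9 OFF 0 h, 6.21-fold (5.70 to 6.79). Its neighbour Prg3, a paralog of major basic protein, was at 74.7 and 593 CPM, 7.93-fold (7.05 to 8.95). Both genes lie on chromosome 2 of GRCm38, at chr2:84980461-84983632 and chr2:84988196-84996559, with 4564 bases between them. The genes around this pair did not share the difference, with Slc43a3 at 25.2 and 25.3 CPM and Ssrp1 at 243 and 218 CPM.

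Mast cell and basophil proteases followed. Cpa3, carboxypeptidase A of mast cell granules, was at 209 CPM in CAF-1 OFF 0 h and 491 CPM in HOXA9 OFF 0 h, 2.35-fold (2.17 to 2.55). Mcpt8, a basophil protease, was at 40.1 and 164 CPM, 4.10-fold (3.46 to 4.88). Cma1, mast cell chymase, had 0 UMIs in CAF-1 OFF 0 h and 248 UMIs in HOXA9 OFF 0 h (59.2 CPM). Its fold has a lower interval limit of 67.1, and it is 83.1 against a floor of 3 counts in the CAF-1 OFF library. Hdc, the enzyme that makes histamine, was at 10.2 and 34.6 CPM, 3.39-fold (2.40 to 4.88).

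Receptors of the same cells were low and also uneven. Ms4a2, the beta chain of the IgE receptor, had 1 UMI in CAF-1 OFF 0 h and 95 in HOXA9 OFF 0 h, a ratio of 95.6 (16.7 to 3813). Il1rl1, the receptor of interleukin 33, had 1 and 41 UMIs. Over the whole mast cell or basophil list, 4 of the 5 members at or above 20 CPM reached 2-fold on the HOXA9 OFF side, with a median log2 ratio of 1.19. The list summed to 291 CPM in CAF-1 OFF 0 h and 846 CPM in HOXA9 OFF 0 h, and Fcer1a, Mcpt4 and Tpsab1 were at 0 in both. Gata2, a transcription factor of mast cells and stem cells, was at 27.0 and 34.8 CPM. In the eosinophil list Prg2 and Prg3 were the 2 members at or above 20 CPM. Alox15, a lipoxygenase of eosinophils and macrophages, had 1 UMI in CAF-1 OFF 0 h and 9 in HOXA9 OFF 0 h, a ratio of 9.05 (1.25 to 397). Ear1, Ear2 and Ear6 were at 0 UMIs in both clones, Epx, eosinophil peroxidase, was at 0.475 and 0 CPM, and Siglecf was at 11.2 and 11.7 CPM.

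Cma1, Mcpt8 and Ctsg belong to 1 cluster of serine protease genes on chromosome 14 of GRCm38 (Cma1 at chr14:55941451-55944675, Mcpt8 at chr14:56082163-56085499, Ctsg at chr14:56099885-56102574). Mcpt8 and Ctsg are 14.4 kb apart, and only the former differed by 2-fold or more. Mcpt1, Mcpt2, Mcpt4, Mcpt9 and Gzmb of the same cluster had 0 UMIs in both clones. The windows of the 4 granule genes past 2-fold that have an entry in the RefSeq promoter table (GRCm38.p6) are shown because these genes differed in the same direction. Each line gives the 250 bases before the transcript start that the promoter table uses, 5′ to 3′ on the strand of the gene. For Mcpt8, Prg3 and Cpa3 that start lies inside the outer bounds of the gene, so the window of Mcpt8 lies wholly within them and those of Prg3 and Cpa3 in part. Capitals mark matches to the GATA letters AGATAA or TGATAA on either strand. The letters TTGCNNAA, a C/EBP core, were also searched on both strands.
Prg3, chr2:84987965-84988214, plus strand: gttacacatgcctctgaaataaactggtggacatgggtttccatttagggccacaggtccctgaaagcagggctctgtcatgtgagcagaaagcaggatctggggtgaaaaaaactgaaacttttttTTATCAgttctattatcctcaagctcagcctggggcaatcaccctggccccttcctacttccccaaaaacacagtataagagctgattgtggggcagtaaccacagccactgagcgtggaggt
Mcpt8, chr14:56085198-56085447, minus strand: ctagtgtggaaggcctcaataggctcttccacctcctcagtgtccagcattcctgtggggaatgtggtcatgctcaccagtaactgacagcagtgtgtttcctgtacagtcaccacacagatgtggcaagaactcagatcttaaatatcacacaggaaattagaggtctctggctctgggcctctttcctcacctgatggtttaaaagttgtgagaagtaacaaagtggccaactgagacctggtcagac
Cma1, chr14:55944676-55944925, minus strand: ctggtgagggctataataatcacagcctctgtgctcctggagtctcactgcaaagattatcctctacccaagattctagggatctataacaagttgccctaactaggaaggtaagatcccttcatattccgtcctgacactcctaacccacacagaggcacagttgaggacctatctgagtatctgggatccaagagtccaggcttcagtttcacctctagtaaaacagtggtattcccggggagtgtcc
Cpa3, chr3:20242182-20242431, minus strand: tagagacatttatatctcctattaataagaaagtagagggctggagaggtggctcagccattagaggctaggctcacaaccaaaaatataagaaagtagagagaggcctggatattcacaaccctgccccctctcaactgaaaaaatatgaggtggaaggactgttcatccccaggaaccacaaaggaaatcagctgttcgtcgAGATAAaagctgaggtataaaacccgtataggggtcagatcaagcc
Prg3 and Cpa3 held 1 GATA match each, and no C/EBP match was present in the 4 windows. Of 32851 promoters of the same length, 16.6% held a GATA match and 9.56% a C/EBP match.

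Prg2 and Cma1 were concentrated in few cells, and the other granule genes less so. The 24 cells (5%) of HOXA9 OFF 0 h with most Prg2 UMIs held 97.6% of them, and 1 cell held 1123. For Prg3, Mcpt8 and Cpa3 the 24 richest HOXA9 OFF cells held 74.8%, 57.5% and 52.7%. Of 473 HOXA9 OFF cells, 16 (3.38%, 1.95 to 5.44) had at least 10 Prg2 UMIs, compared with 6 of 647 CAF-1 OFF cells (0.927%, 0.341 to 2.01). A Cma1 UMI was found in 19 HOXA9 OFF cells (4.02%, 2.44 to 6.20) and in 0 of 647 CAF-1 OFF cells. The interval of the latter allows a share of cells with a UMI of up to 0.569% and does not limit the share that expresses the gene. In HOXA9 OFF, 3 of the 16 cells with at least 10 Prg2 UMIs also had a Cma1 UMI, beside 4.02% of all 473 cells. The cells are few, and this overlap was not tested.

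Other mast cell genes were present in the 19 cells with Cma1, not all of them in a larger share than over the whole library. Of these, 15 had a Cpa3 UMI, 9 an Mcpt8 UMI, 9 an Ms4a2 UMI and 6 an Il1rl1 UMI, and 0 had an Elane UMI. Over all HOXA9 OFF 0 h cells the shares were 60.5% for Cpa3, 47.6% for Mcpt8, 4.44% for Ms4a2 and 4.02% for Il1rl1. For Elane the share was 14.6%. The count for Mcpt8 was thus near its share over all cells, while those for Ms4a2 and Il1rl1 were above theirs. Their Cpa3 level was 3746 CPM, beside 328 CPM in the 441 HOXA9 OFF cells with neither Cma1 nor 10 Prg2 UMIs. Their Mpo level was 462 CPM beside 1010 CPM, while Cd34 was at 569 and 671 CPM and Kit at 196 and 76.8 CPM. The HOXA9 OFF cells with 10 or more Prg2 UMIs likewise had less Mpo (497 CPM) and kept Ctsg (2544 CPM). In the 6 such cells of CAF-1 OFF, Mpo was at 1376 CPM beside 1451 CPM in the other 641 cells. These cells were picked by their UMIs, so their levels are a description.

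Part of the difference lay in the remaining cells too. The 441 HOXA9 OFF cells with neither Cma1 nor 10 Prg2 UMIs held 1316 of the 2485 Prg3 UMIs. With every cell that had Cma1 or at least 10 Prg2 UMIs left out of both libraries, a choice made after the data were seen, the log2 ratio was 1.46 for Prg2, 3.42 for Prg3, 1.10 for Mcpt8, 0.71 for Cpa3 and 0.58 for Hdc. At an equal depth of 3600 UMIs a cell, which 584 CAF-1 OFF and 463 HOXA9 OFF cells reached, Prg3 was found in 4.28% (2.79 to 6.26) of CAF-1 OFF cells and 23.5% (19.7 to 27.7) of HOXA9 OFF cells. Without thinning the shares were 6.18% and 32.3%. For Cpa3 the shares were nearer, 34.4% (30.6 to 38.4) and 41.9% (37.4 to 46.5). Free RNA in droplets can place UMIs in cells that do not express a gene, and its part in these shares was not tested.

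Another set of genes was higher in many HOXA9 OFF 0 h cells and not concentrated in a few. Ube2s, a ubiquitin-conjugating enzyme of the anaphase-promoting complex, was at 212 CPM in CAF-1 OFF 0 h and 677 CPM in HOXA9 OFF 0 h, 3.20-fold (2.97 to 3.45). At 3600 UMIs it was found in 51.4% (47.2 to 55.5) of CAF-1 OFF cells and 89.4% (86.3 to 92.1) of HOXA9 OFF cells. The 5% of HOXA9 OFF cells richest in Ube2s held only 14.4% of its UMIs. Prg2 had the opposite distribution.

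Crip1, a small LIM-domain protein, had the steepest change of this kind, at 4.75 CPM in CAF-1 OFF 0 h and 88.5 CPM in HOXA9 OFF 0 h, 18.7-fold (11.9 to 30.9). It was found in 1.88% (0.944 to 3.34) and 24.0% (20.2 to 28.1) of thinned cells. Thy1, a surface glycoprotein of T cells and some progenitors, was at 9.49 and 40.8 CPM and in 3.77% and 11.2% of thinned cells. Mtch1, a mitochondrial outer membrane protein, was at 22.1 and 105 CPM and in 6.68% and 31.1% of thinned cells. Taf10, a subunit of the general transcription factor TFIID, was at 25.2 and 95.9 CPM, and Hras, a signalling GTPase, at 26.3 and 92.1 CPM.

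Further genes on the HOXA9 OFF side were of varied kinds. Those named here, chosen in part after their values were seen, include Gnai2, an inhibitory G protein subunit (127 and 315 CPM in CAF-1 OFF 0 h and HOXA9 OFF 0 h), Tst, the mitochondrial enzyme rhodanese (237 and 532 CPM), Ppp2ca, the catalytic subunit of protein phosphatase 2A (67.9 and 166 CPM), Ptprcap, a partner of CD45 (126 and 279 CPM), H1fx, a linker histone (40.6 and 119 CPM), and Grb2, a signalling adaptor (33.0 and 77.1 CPM). Ddit3, the stress factor CHOP, was at 181 and 382 CPM, yet the ATF4 amino acid response list that holds it had a median log2 ratio of -0.10 over 13 genes, with Asns at 83.3 and 51.8 CPM and Trib3 at 26.6 and 28.2 CPM. Ddit3 was the 1 member of that list past 2-fold. The transcripts of the 35 genes had a median GC content of 54.5% and a median length of 1577 bases, beside 49.6% and 2353 bases for all counted genes, and the part of sequence content in the difference was not tested.

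**Figure D2:**
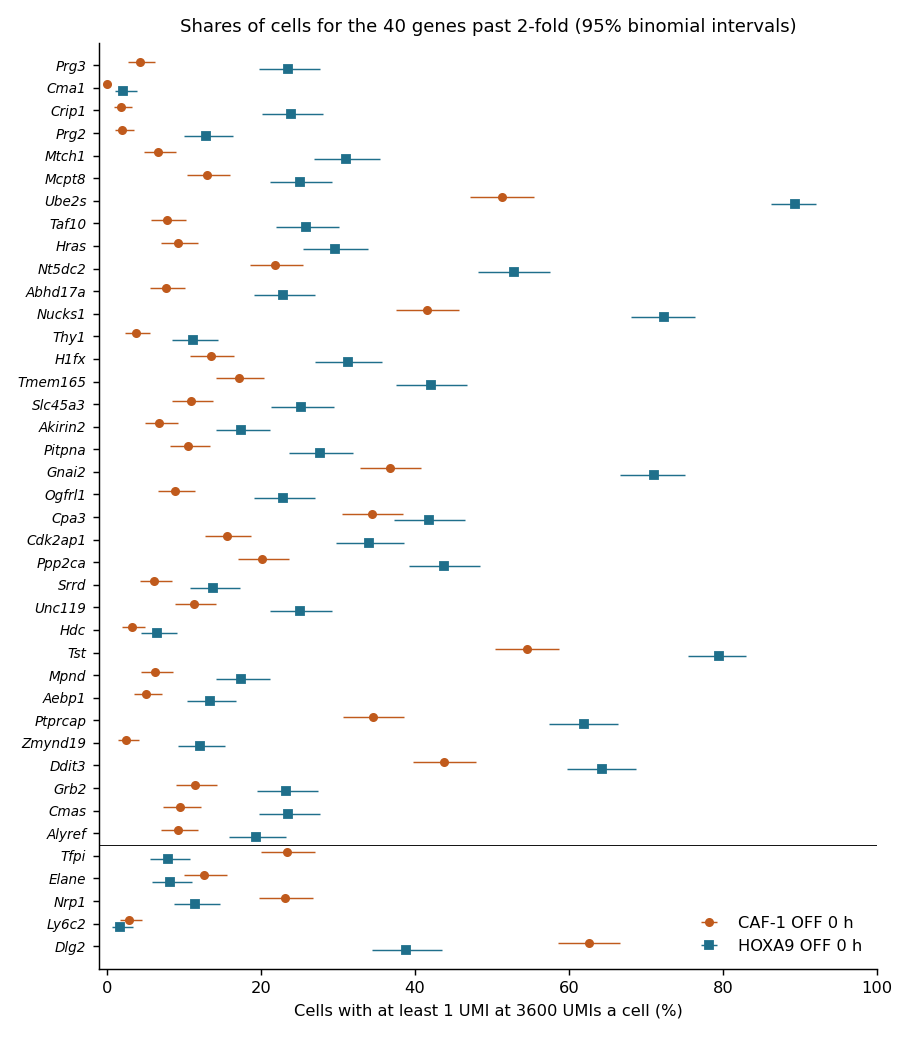
Share of cells with at least 1 UMI of each of the 40 genes past 2-fold, in percent, for CAF-1 OFF 0 h (circles, 584 cells) and HOXA9 OFF 0 h (squares, 463 cells), each cell thinned to 3600 UMIs; bars are 95% Clopper-Pearson intervals and cover counting error only. Ube2s goes from 51.4% to 89.4% of cells, while Cma1 stays at 2.16% of HOXA9 OFF cells; the 5 genes below the line are higher in CAF-1 OFF.

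The 5 genes on the CAF-1 OFF side were mixed in kind. Tfpi, an inhibitor of blood coagulation, was at 79.2 CPM in CAF-1 OFF 0 h and 25.8 CPM in HOXA9 OFF 0 h, 3.07-fold (2.47 to 3.86), and was found in 23.5% (20.1 to 27.1) and 7.99% (5.69 to 10.9) of thinned cells. Nrp1, a co-receptor for semaphorins and vascular growth factor, was at 72.1 and 30.1 CPM, 2.40-fold (1.94 to 2.98). Dlg2, a scaffold protein, was the most abundant, at 342 and 165 CPM, and fell on the limit with 2.08-fold (1.89 to 2.28).

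Elane and Ly6c2 were the myeloid genes among them. Elane, neutrophil elastase, was at 129 CPM in CAF-1 OFF 0 h and 48.2 CPM in HOXA9 OFF 0 h, 2.67-fold (2.27 to 3.15), with 5% of cells holding 74.2% and 77.7% of its UMIs. Prtn3, proteinase 3, which is the next gene on chromosome 10 at 3138 bases from Elane, was at 1281 and 1181 CPM. Ly6c2, a surface antigen of monocytes and neutrophil precursors, was at 32.3 and 11.0 CPM, and 5% of cells held 100% of its UMIs in both clones. Ms4a3, a marker of the granulocyte-macrophage lineage, was at 115 and 64.9 CPM with a log2 ratio of -0.74. In the early granulocyte list 1 of 4 counted members was past 2-fold, with a median log2 ratio of -0.42, and in the monocyte list 1 of 3, with a median of -0.51.

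The barcodes over the mitochondrial limit, which the ratios above did not use, gave a further view of the same libraries. Their depth was low, with medians of 717 UMIs in HOXA9 OFF 0 h and 742 in CAF-1 OFF 0 h, mitochondrial UMIs included. Whether these barcodes are intact cells, damaged cells or free RNA was not tested. They held 896801 UMIs in HOXA9 OFF 0 h and 545647 in CAF-1 OFF 0 h. With totals taken without mitochondrial genes and ratios set against the median gene (-0.12), 2.47% of the 4580 genes reached 2-fold on the HOXA9 OFF side and 2.27% on the CAF-1 OFF side. Of the 35 genes, 24 reached 2-fold on the HOXA9 OFF side there and all 35 lay above the median gene. Prg2 and Prg3 both had a log2 ratio of 3.37 before that centring, Crip1 2.68, Cma1 4.57 and Ube2s 1.43. The smallest were Akirin2 (0.04), Grb2 (0.17) and Ppp2ca (0.25). Of the 5 genes on the other side, 3 reached 2-fold on the CAF-1 OFF side, with Tfpi at -1.85, Nrp1 at -1.43 and Elane at -1.42. Barcodes of 1 library share its preparation, so this does not separate clone from library.

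The later libraries of both arms are separate preparations from the same 2 clones, but after treatment. At 48 h, 5% of the 4580 genes reached 2-fold on the HOXA9 OFF side and 22.2% on the CAF-1 OFF side. Of the 35 genes, 11 were past 2-fold on the HOXA9 OFF side at 48 h and 8 on the other side. At 96 h the background was 8.12% and 42.6%, and the 35 genes split into 7 and 11. Of the 5 genes on the CAF-1 OFF side, 3 were past 2-fold on that side at 48 h (Tfpi, Nrp1 and Dlg2), with Ly6c2 past it on the other side, and 3 at 96 h (Tfpi, Elane and Dlg2), with 0 on the other side. These counts were not set against the median gene, whose log2 ratio was -0.41 at 48 h and -0.78 at 96 h. Set against it, 14 of the 35 genes at 48 h and 11 at 96 h were past 2-fold on the HOXA9 OFF side. Of the 5, 2 and 3 were then past it on the CAF-1 OFF side. Treatment and clone cannot be told apart in these later libraries.

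Single genes followed different courses. Crip1 stayed on the HOXA9 OFF side, going at 0, 48 and 96 h from 88.5 to 60.1 and 33.2 CPM there, beside 4.75, 6.08 and 11.1 CPM in the CAF-1 OFF arm. Taf10 did too, with 95.9, 123 and 113 CPM in the HOXA9 OFF arm beside 25.2, 36.0 and 45.0 CPM in the CAF-1 OFF arm. Prg2 measured 876, 16629 and 3021 CPM in the HOXA9 OFF arm beside 141, 270 and 879 CPM in the CAF-1 OFF arm. For these genes the HOXA9 OFF value was the higher at each time. Prg3, the neighbour of Prg2, changed sides by 96 h. It measured 593, 2522 and 149 CPM in the HOXA9 OFF arm beside 74.7, 189 and 362 CPM in the CAF-1 OFF arm.

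Other genes changed sides. Mcpt8 measured 164, 17.5 and 0 CPM in the HOXA9 OFF arm at 0, 48 and 96 h, beside 40.1, 373 and 1159 CPM in the CAF-1 OFF arm. Cpa3 measured 491, 384 and 10.2 CPM in the HOXA9 OFF arm beside 209, 1035 and 2813 CPM in the CAF-1 OFF arm. For Mcpt8 and Cpa3 the starting order was thus the reverse of the later order. Hdc kept its starting order, at 34.6, 58.6 and 65.5 CPM in the HOXA9 OFF arm beside 10.2, 17.4 and 23.2 CPM. Cma1 kept it to 48 h and was absent from both arms at 96 h. It was at 59.2, 25.2 and 0 CPM in the HOXA9 OFF arm beside 0, 0.179 and 0 CPM. Elane measured 48.2, 512 and 3.69 CPM in the HOXA9 OFF arm beside 129, 913 and 1386 CPM in the CAF-1 OFF arm. Tfpi went from 25.8 to 4.33 and 0.567 CPM in the HOXA9 OFF arm, beside 79.2, 80.7 and 74.3 CPM in the CAF-1 OFF arm.

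**Figure D3:**
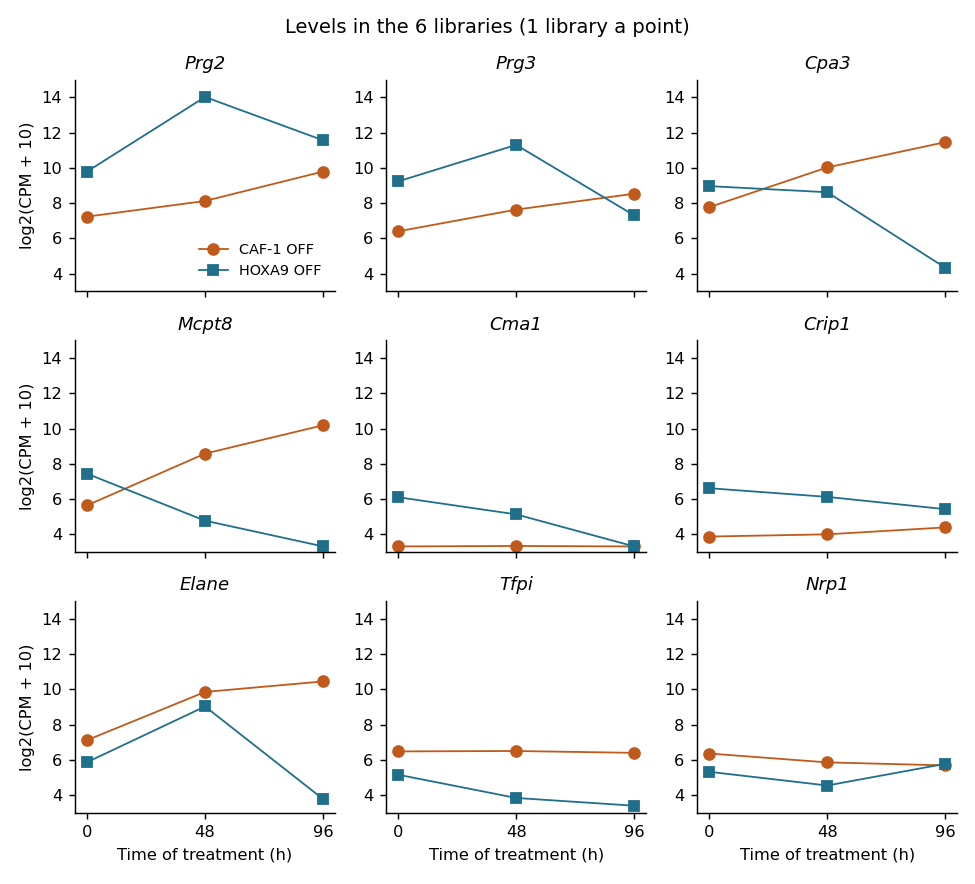
Level of 9 genes as log2(CPM + 10) against hours of treatment for CAF-1 OFF (circles) and HOXA9 OFF (squares), with 1 library a point and no replicates. At 0 h both clones are untreated. The lines of Cpa3 and Mcpt8 cross after 0 h and those of Prg3 and Nrp1 after 48 h. Crip1 stays higher in HOXA9 OFF and Tfpi stays higher in CAF-1 OFF.

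Ordering the counted genes along the chromosomes showed 1 long run with a common shift. For each chromosome, the run of neighbouring genes with the largest total excess over the median gene was sought, after subtracting 0.25 from each log2 ratio. On chromosome 1 this run held 31 consecutive counted genes, from Bcl2 to Timm17a (GRCm38, chr1:106538176-135313737), and the longest run found on any other chromosome held 5. All 31 genes had a log2 ratio above 0, from 0.15 for Rnpep to 1.41 for Nucks1, and the median exceeded that of all genes by 0.58, or 1.49-fold. The 222 other counted genes of chromosome 1 had a median 0.01 below that of all genes. Nucks1, a nuclear DNA-binding protein (160 and 442 CPM in CAF-1 OFF 0 h and HOXA9 OFF 0 h), and the neighbouring transporter gene Slc45a3 (36.1 and 104 CPM) were the members past 2-fold.

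Genes of unlike function lay in this segment, and the size of the shift varied among them. Dbi, an acyl-CoA binding protein, was at 1016 CPM in CAF-1 OFF 0 h and 1717 CPM in HOXA9 OFF 0 h. Snrpe, a core splicing protein, was at 535 and 814 CPM. Actr3, of the actin-branching complex, was at 320 and 443 CPM, and Mcm6, of the replicative helicase, at 123 and 167 CPM. Beyond the borders, Gin1 (log2 ratio of -0.10) came before Bcl2 with no counted gene between them, and Csrp1 (0.10), Phlda3 (0.01), Tnnt2 (0.34) and Ptprc (-0.57), which encodes CD45, came after Timm17a.

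The run was chosen on these ratios, so measures it did not use were examined. A further 53 genes of the same interval fell under the 20 CPM limit, and their summed share of UMIs, relative to all other genes under the limit, was 1.48-fold (1.37 to 1.60) higher in HOXA9 OFF 0 h. In the barcodes over the mitochondrial limit the 31 genes had a median 0.69 above that of all genes, and all 31 lay above it. At 48 h the median lay 0.66 above that of all genes, with 26 of 31 above it, and at 96 h 1.14 above, with 19 of 31. The genes under the limit gave 1.35-fold (1.27 to 1.44) at 48 h and 1.55-fold (1.47 to 1.65) at 96 h. The shift was thus present in each of the 3 pairs of libraries.

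A gap between the clones at 0 h follows from how the 31 genes were chosen. Their share per cell shows only how that gap was spread over cells. It was not confined to a few cells, and the ranges of the clones overlapped. The 31 genes made up a median of 0.976% of a cell's UMIs (without mitochondrial and ribosomal protein genes) in HOXA9 OFF 0 h, with 0.718% and 1.30% at the 5th and 95th percentiles. In CAF-1 OFF 0 h the median was 0.613%, with 0.392% and 0.848%. The later medians, for 48 and 96 h, were 0.829% and 0.764% in the HOXA9 OFF arm, beside 0.587% and 0.519% in the CAF-1 OFF arm. DNA copy number was not measured here, and the part of chromosome structure in this shift was not tested.

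**Figure D4:**
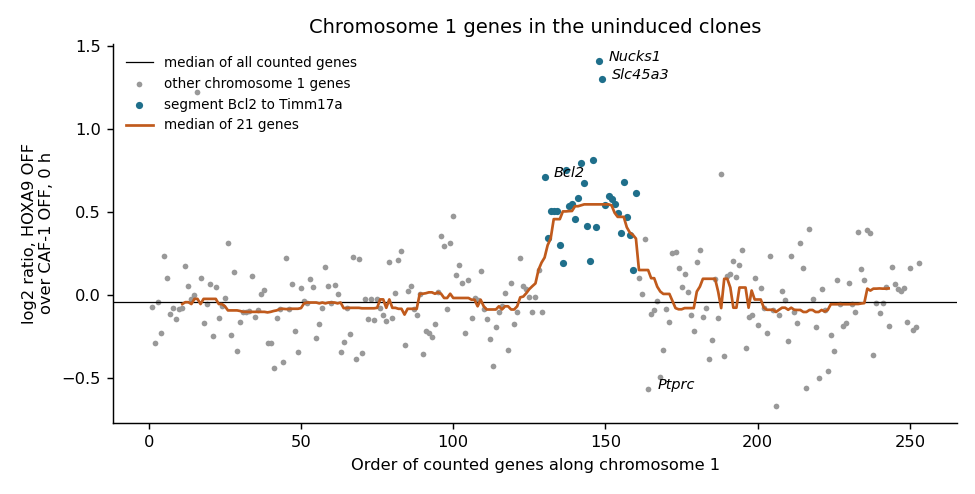
Log2 ratio of HOXA9 OFF 0 h over CAF-1 OFF 0 h (vertical) for the 253 counted genes of chromosome 1 in their order along it (horizontal, rank); dark points are the 31 genes from Bcl2 to Timm17a, the coloured line is the median of 21 neighbouring genes and the horizontal line the median of all 4580 genes. The 31 points lie above the horizontal line, and the running median returns to it on both sides.

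Chromosome 17 differed in another way. Its 236 counted genes had a median log2 ratio of 0.08, which is 0.13 above that of all genes, while the other chromosomes lay between 0.05 below and 0.02 above. The running median of 21 genes never went below that of all genes along chromosome 17, with a lowest value of 0.03 above it. The shift in the summed counts was small, and the single cells showed how it was distributed.

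In HOXA9 OFF 0 h, the share of a cell's UMIs from chromosome 17 had a second peak above the main one, with some cells between them. Of 468 cells with at least 1500 UMIs in the genes used, 77 (16.5%, 13.2 to 20.1) lay above 1.2 times the library median, and their own median was 1.39 times it. 13 cells lay between 1.15 and 1.25 times, near the limit. In CAF-1 OFF 0 h, 4 of 620 cells (0.645%, 0.176 to 1.64) lay above 1.2 times. The limit was set after the data were seen and cuts a range of values. On the other chromosomes the share of HOXA9 OFF 0 h cells above 1.2 times their median was 0% on chromosome 11, which has most genes, and at most 6.20% on chromosome 14, with 9.35% in CAF-1 OFF.

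**Figure D5:**
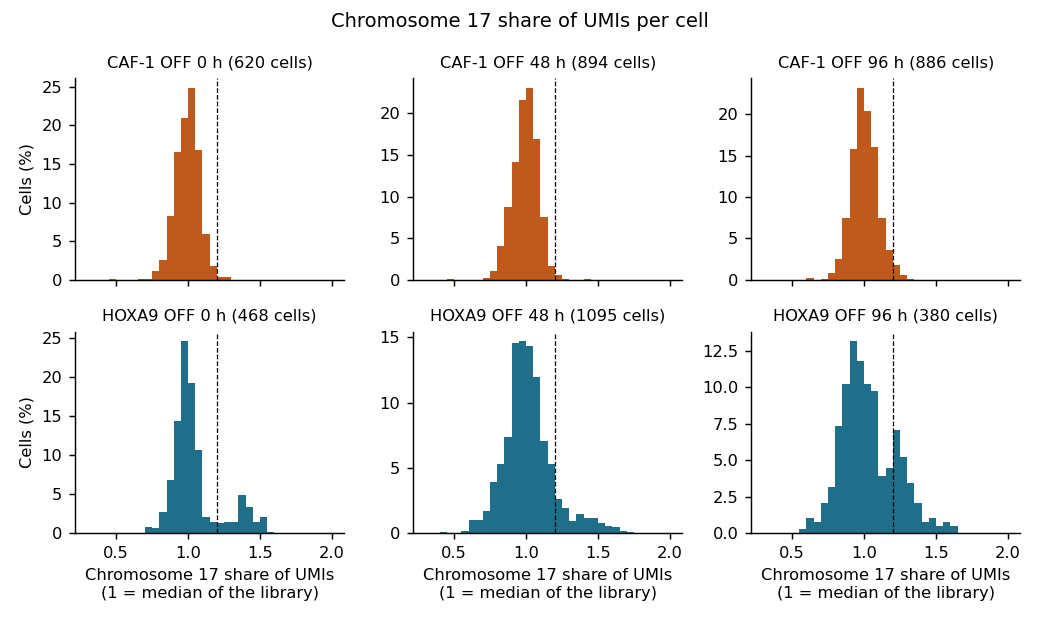
Distribution over cells of the chromosome 17 share of UMIs, relative to the median of the library (horizontal), in percent of cells (vertical), for the 6 libraries; the dashed line is 1.2 times the median. HOXA9 OFF 0 h has a second peak, with 77 cells past the line at a median of 1.39 times, CAF-1 OFF 0 h has 4 cells past the line, and the distributions at 48 and 96 h are broader in HOXA9 OFF.

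Genes that did not take part in choosing these cells showed the same excess. When cells were chosen on every other chromosome 17 gene (114 genes), 82 HOXA9 OFF 0 h cells were above 1.2 times, and the 114 genes left made up 2.60% of their UMIs, beside 1.93% in the other 386 cells, a ratio of 1.35. The same procedure in CAF-1 OFF 0 h chose 20 cells with a ratio of 0.97. The 430 chromosome 17 genes under 20 CPM were 1.45-fold (1.39 to 1.52) higher in the 77 cells than in the other cells of the library. Windows of 10 Mb used the genes that chose the 77 cells. An excess in them follows from that choice, and they show only how it was spread. In these windows the median log2 ratio of the 77 cells over the others lay between 0.32 and 0.52 from end to end of the chromosome. The medians of all other chromosomes lay between -0.08 and 0.

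The cells of high chromosome 17 share were close to the others in depth. They held a median of 9692 UMIs and 2594 genes, beside 8587 and 2481 in the other 391 cells, and their median mitochondrial share was 5.47% beside 5.01%. They made up 8.06% of the 211 cells with at most 5% mitochondrial UMIs and 23.3% of the 257 cells above that. Of the 16 cells with 10 or more Prg2 UMIs 5 were among them, and of the 19 cells with Cma1 2 were. Elane was at 107 CPM in the 77 cells and 35.3 CPM in the others, and Ly6c2 at 51.6 and 2.04 CPM, while Mpo was at 878 and 999 CPM. The share of cells above 1.2 times was 11.4% and 21.6% in HOXA9 OFF at 48 and 96 h, and 0.783% and 2.48% in CAF-1 OFF. At these later times the HOXA9 OFF values were not particular to chromosome 17. At 48 h the shares on chromosomes 7, 18 and 19 were 18.6%, 22.7% and 20.2%, and at 96 h those on chromosomes 12 and 18 were 18.9% and 23.9%. Depth was lower in those HOXA9 OFF libraries, and 309 and 1130 cells were left out for it. Without the 77 cells, 33 genes reached 2-fold on the HOXA9 OFF side and 3 on the CAF-1 OFF side. Of those 3, 2 were among the genes called on that side with all cells.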

How the data were processed

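Live cells of 6 cultures were captured with 10x Chromium 3′ chemistry. The authors aligned the reads to the GRCm38 (mm10) mouse assembly with Cell Ranger (3.0.1 in the submitters' processing notes) and deposited whole-number UMI counts per gene and barcode, with 7821 barcodes and 27998 gene columns in 1 table. Barcodes were assigned to libraries by their ending, and the 2 libraries at 0 h were used, with 1 library a group. Barcodes with 200 to 6000 genes and at most 10% of UMIs in the 13 mitochondrial genes were kept, and doublets were left in (Scrublet in Scanpy 1.11.5 called 46 of 647 and 18 of 473). UMIs were summed per library and scaled to CPM, and log2 ratios were taken after adding 10 CPM. Genes whose mean reached 20 CPM were counted, and 2-fold was the limit. With 1 library a group no test was made. Genes named are Chaf1b, Chaf1a and Hoxa9, up to 15 with the largest ratio on each side, the 5 nearest the limit inside and outside it, the 15 most abundant, members of 31 gene lists, and members of the chromosome runs and loci, which were chosen after their values were seen. The members, lists and rules were chosen with earlier results of these data known. Shares of cells used cells thinned to 3600 UMIs, the 10th percentile of the shallower library rounded down, and left out 63 CAF-1 OFF and 10 HOXA9 OFF cells. Gene positions and promoters came from RefSeq (GRCm38.p6), and GC content and length from the longest protein-coding transcript of an older annotation, matched for 92.2% of counted genes by symbol. Reads of near-identical genes and of overlapping genes cannot be told apart. The ratio, interval and run-finding steps were tested on simulated counts. Alternatives used Python 3.11.15 and edgeR 4.0.16 (TMM factors).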

Additional observations from a re-analysis of the deposited data

How the results depend on the processing

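No paired analysis was possible because each group is 1 library, and no replicate could be left out. The 35 genes higher in HOXA9 OFF 0 h became 23 at a mean of at least 50 CPM, 12 with a pseudocount of 50 CPM, 92 with a 1.5-fold limit, 5 in the barcodes over the mitochondrial limit and 78 in those barcodes scaled without mitochondrial genes. The 5 genes higher in CAF-1 OFF 0 h became 8 and 0 with pseudocounts of 1 and 50 CPM, 3 with TMM, 29 with the 1.5-fold limit, 1059 and 163 in those barcodes, and 3 without the cells of high chromosome 17 share. TMM left 35 genes on the HOXA9 OFF side. Similar counts did not always hold the same genes. Of the 35, 20 were among the 78. A 5% mitochondrial limit kept 29 of the 35 and 3 of the 5. Cells thinned before summing kept 30 and 2, and single-cell CPM averaged kept 33 and 3. Of the 3 left without the cells of high chromosome 17 share, 2 were among the 5. In the barcodes over the limit, where the mitochondrial share differs between the libraries and the median log2 ratio of all genes was -0.69, 7 called genes changed sign: Akirin2 (-0.47), Grb2 (-0.42), Ppp2ca (-0.41), Tst (-0.29), Ptprcap (-0.0729), Pitpna (-0.0665) and Srrd (-0.0489). Without mitochondrial genes in the total, 0 of these 7 were below 0.

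The GMP list (-0.08) moved to -0.23 with no mitochondrial limit and to -1.14 and -0.47 in the barcodes over it, with and without mitochondrial genes in the total. The mast cell or basophil list (1.19) moved to 1.67 and 1.06 with pseudocounts of 1 and 50 CPM, 1.497 at a mean of at least 50 CPM, 1.95 with single-cell CPM averaged, 1.08 with thinned cells, 0.97 and 1.75 in those barcodes, and 0.71 without the cells with Cma1 or 10 Prg2 UMIs. The eosinophil list (2.69) moved to 2.32 with a pseudocount of 50 CPM, 2.26 with single-cell CPM averaged, 4.25 at a 5% mitochondrial limit, 2.54 and 3.37 in those barcodes, 3.42 without the Cma1 or Prg2 cells, and 0.0365 with no filter, which adds members near 0. The chromosome 1 segment (0.58 above all genes) moved to 0.63 and 0.38 with pseudocounts of 1 and 50 CPM, and to 0.69 in those barcodes without mitochondrial genes in the total. The share of HOXA9 OFF cells with high chromosome 17 share (16.5%) moved to 8.53% at a 5% mitochondrial limit. A list median covers only the members that reach the limit, so its members can differ between settings. The cause of the other moves was not tested. Of 952 values of named genes under an alternative, 695 stayed within their counting interval, 250 moved past it and 7 changed sign. Of 320 shares of cells 146 stayed within theirs. Leaving out cells, settings of the chromosome 17 limit and the totals without mitochondrial genes were chosen after seeing the data.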

Other observations

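Lists not described above had few members past 2-fold. Among 4 counted cytokine receptors the median log2 ratio of HOXA9 OFF 0 h over CAF-1 OFF 0 h was -0.31, with 0 past 2-fold. Csf2ra, the alpha chain of the GM-CSF receptor, was at 27.8 CPM in CAF-1 OFF 0 h and 15.04 CPM in HOXA9 OFF 0 h, while Csf2rb, the common beta chain, was at 10.7 and 27.0 CPM. Among 12 counted histone chaperones the median was -0.08 and 0 were past 2-fold. Among 8 counted histone variants 1, H1fx, was past 2-fold. Hypoxia genes had a median of 0.04 over 6 genes, with Ndrg1 at 38.7 and 20.3 CPM and Ero1l, an oxidase of the endoplasmic reticulum, at 80.9 and 138 CPM. Cholesterol synthesis genes had a median of -0.17 over 14 genes, endoplasmic reticulum chaperones -0.14 over 10 and interferon response genes -0.03 over 2, each with 0 past 2-fold. Ribosomal protein genes took 28.7% of UMIs in HOXA9 OFF 0 h and 28.0% in CAF-1 OFF 0 h, and mitochondrial genes 5.23% and 5.22%.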
